A study of Mus musculus with 18 samples.

Results

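The 84 genes described here encode nuclear subunits of the mitochondrial respiratory chain and of the ATP synthase, together with a few related proteins that carry the same gene names. They were taken by symbol from a deposited table of 23418 genes: 37 for complex I (the Nduf subunit genes), 4 for complex II (Sdha to Sdhd), 8 for complex III (Uqcr genes), 18 for complex IV (the Cox4 to Cox8 families) and 17 for complex V (Atp5 genes). The symbol rule uses no measured value, but it was chosen with earlier results of these data known. Of the 84 genes, 78 passed the filter on low values, an RPKM (reads per kilobase of gene per 1000000 counted reads) of at least 1 in at least 3 of 18 libraries. By complex, 35, 4, 8, 14 and 17 genes passed.

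Complex I oxidises NADH and complex II oxidises succinate, and both pass the electrons to coenzyme Q. Complex III moves them on to cytochrome c and complex IV to oxygen, while complexes I, III and IV pump protons across the inner mitochondrial membrane. Complex V, the ATP synthase, lets the protons flow back and makes ATP. Acute myeloid leukemia cells are known to draw much of their ATP from this pathway. Subunits encoded by mitochondrial DNA were not analysed here, so the values below are about nuclear genes, at the level of polyadenylated RNA.

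The libraries came from leukemia cells of C57BL/6 mice transformed by an MLL fusion gene. The fusion partner of MLL was AF9, AF6 or AF1p (cells called MLL-AF9, MLL-AF6 and MLL-AF1p below), and for every fusion 3 libraries came from cells given MI-2-2, a compound that blocks binding of menin to MLL, and 3 from cells given DMSO, the solvent. Treated cells had 6 µM MI-2-2 for 6 days, all groups had 0.25% DMSO, and on day 3 the medium and the compound were renewed and the density of viable cells was set back to its starting value. The labels give no promoter or vector for the fusions, and they do not say whether a cell line is 1 clone or whether replicates were separate cultures. The p-values therefore reflect how much the libraries of a group vary, and this variation may be technical.

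Depth was 21180926 to 56304997 counted reads a library, and all 6 MLL-AF1p libraries were deeper (at least 48883357) than the other 12. Of the 78 genes, 62 had at least 1000 reads in every library. Genes of mature myeloid cells moved strongly with MI-2-2. Of 13 monocyte and macrophage markers that passed the filter, 4 (Mrc1, Msr1, C1qb and Itgax) passed only through MI-2-2 libraries and so had to differ. Of the other 9, 8 rose in MLL-AF9 cells, 6 in MLL-AF6 cells and 7 in MLL-AF1p cells. Among the 13 markers, 1 fell in MLL-AF9 cells, 2 in MLL-AF6 cells and 1 in MLL-AF1p cells. Of all genes tested, 28.5%, 18% and 19.1% rose and 27.9%, 38.9% and 26.3% fell in these constructs. Of 10 neutrophil markers, 10, 10 and 8 rose, and the summed RPKM of the neutrophil list went from 2870 to 4060 under DMSO to 24700 to 28800 with MI-2-2 in MLL-AF9 cells, while in MLL-AF6 cells the ranges were 2270 to 3120 and 18700 to 20600, and in MLL-AF1p cells 3370 to 3820 and 30900 to 35800. Of the myeloid leukemia markers, 13 of 14 passed the filter. Among these 13, 7 rose and 4 fell in MLL-AF9 cells, 6 and 4 in MLL-AF6 cells, and 5 and 1 in MLL-AF1p cells. Of 6 proliferation markers, 6 rose in MLL-AF9 cells and 1 in MLL-AF6 cells, while in MLL-AF1p cells 1 rose and 1 fell. All 6 stroma markers and all 5 muscle markers were under an RPKM of 1 in every library, no erythroid marker of 8 passed the filter, and 4 of 5 B cell and 4 of 5 T cell markers were under 1 throughout. The part of these marker genes in the results below was not tested, and in bulk RNA fewer cells of a type and less RNA per cell cannot be told apart.

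Respiratory chain genes were among the most abundant transcripts of these cells. Of the 500 genes with the highest mean RPKM, 35 were members, and 68 of the 78 had a mean RPKM of at least 50. Atp5b, the catalytic beta subunit of the ATP synthase, was the highest member in every group, with 568 ± 46.9 RPKM (mean ± SD, n = 3, as for every group below) in MLL-AF9 cells under DMSO. Cox4i1, a regulatory subunit of complex IV, measured 561 ± 16.2 RPKM in the same group. The median level under DMSO in MLL-AF9 cells was 89.9 RPKM for complex I, 98.8 for complex II, 196 for complex III, 193 for complex IV and 247 for complex V, so complexes III to V lay above complexes I and II. The lowest tested member of complex I was Ndufs1, the largest iron-sulfur subunit of the NADH-oxidising arm, with 7.7 RPKM, over a listed length of 11262 bases where the median length of the members was 684.

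The members together took 1.14% ± 0.0415 of the counted reads of MLL-AF9 cells under DMSO and 0.925% ± 0.0169 with MI-2-2, and no treated library reached a control library. In MLL-AF6 cells the share was 0.936% ± 0.0341 under DMSO and 0.984% ± 0.0214 with MI-2-2, and the ranges met at their ends (0.898% to 0.9635% against 0.9628% to 1.006%). In MLL-AF1p cells it was 1.06% ± 0.0371 and 1.03% ± 0.00779, with overlapping ranges. The groups thus lay farther apart under DMSO (means of 0.936% to 1.14%) than with MI-2-2 (0.925% to 1.03%). Complex III in MLL-AF9 cells went from 0.122% ± 0.00694 to 0.0874% ± 0.00138 of reads. Complex IV went from 0.233% ± 0.00478 to 0.18% ± 0.00166 in MLL-AF9 cells and from 0.173% ± 0.00699 to 0.192% ± 0.00482 in MLL-AF6 cells. Ribosomal protein genes, another group of short and abundant transcripts, took 10.7% ± 1.27 of reads under DMSO and 5.42% ± 0.0426 with MI-2-2 in MLL-AF9 cells, 6.55% ± 0.854 and 4.63% ± 0.388 in MLL-AF6 cells, and 8.13% ± 0.182 and 5.96% ± 0.0754 in MLL-AF1p cells.

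**Figure D1:**
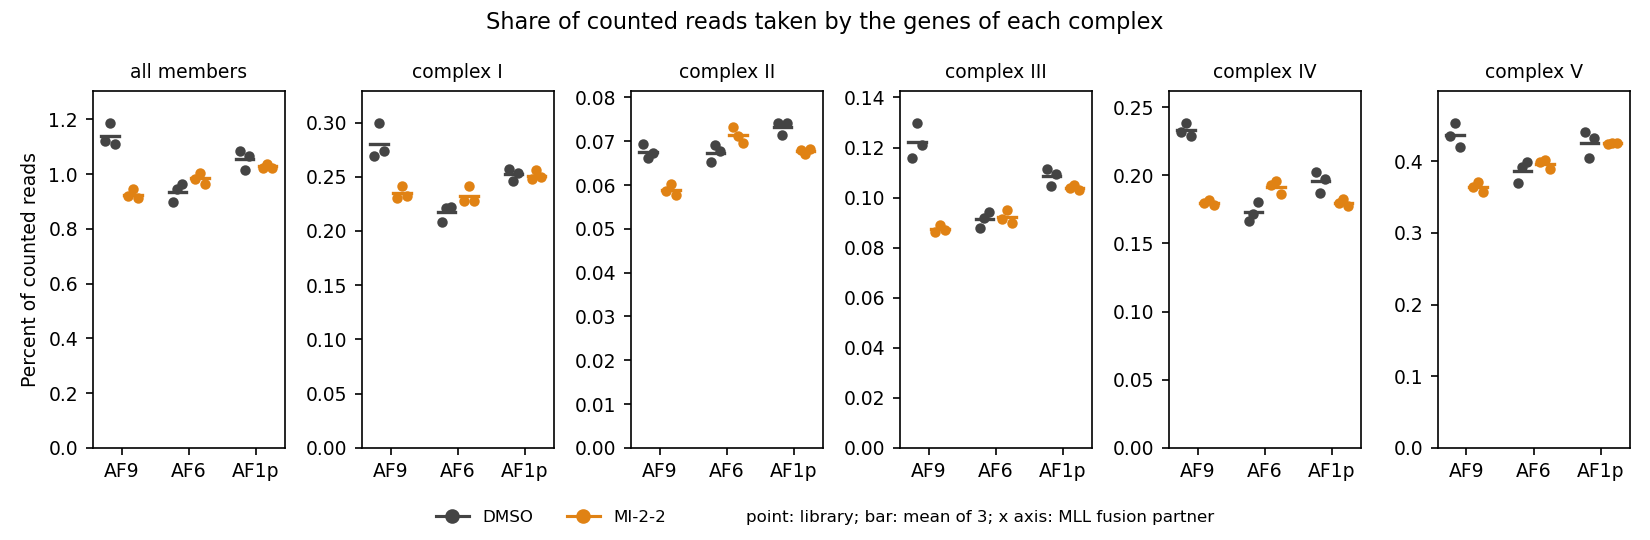
Percent of counted reads taken by all members and by the genes of each complex (y axes start at 0 and differ in height), by MLL fusion partner (x axis), under DMSO (grey) and MI-2-2 (orange); points are libraries and bars the mean of 3. In MLL-AF9 cells the treated libraries lie below the controls in every panel, whereas in MLL-AF6 cells their means lie above those of the controls.

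With MI-2-2, most of the called members fell in MLL-AF9 cells and rose in MLL-AF6 cells. Each gene was tested with limma on log2(RPKM + 0.5), and called at a Benjamini-Hochberg adjusted p under 0.05. In MLL-AF9 cells 45 of 78 members fell and 2 rose, with a median log2 fold change of -0.27. Of all 11238 genes tested, 27.9% fell and 28.5% rose, with a median of 0.00. The 2 members that rose were Cox5a and Ndufa4, and both calls were lost after median centring, in a fit of the construct alone, and without any 1 of several libraries named below. For 49 of the 78 members the treated and control libraries of MLL-AF9 cells did not overlap, as for 57.2% of all genes tested, a share near that of the members.

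In MLL-AF6 cells 25 members rose and 6 fell, with a median of 0.10, while of all genes 18% rose and 38.9% fell, with a median of -0.16. The scaling of these libraries mattered for the level of all genes. With voom on the recovered whole reads and trimmed-mean scaling, the median of all genes was -0.04 and that of the members 0.24, and 42 members rose and 3 fell. Relative to the median of all genes, the members' median was 0.25 higher, and 0.19 to 0.27 higher over the scalings tried. In MLL-AF9 cells it was 0.27 lower (0.20 to 0.27 lower over the same scalings). The treated and control libraries of MLL-AF6 cells did not overlap for 40 of the 78 members and for 60.9% of all genes. With voom the rises of Sdhc, Uqcrfs1, Cox5a, Cox5b, Cox6a1, Cox6b1, Cox7a2, Cox8a, Ndufa4, Ndufa6, Ndufs4 and Cyc1 given below for MLL-AF6 cells were over 1.5 times larger, at log2 changes of 0.30 to 0.42.

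In MLL-AF1p cells 7 members rose and 13 fell, where 19.1% of all genes rose and 26.3% fell, and the median was -0.06 for the members and for all genes alike. This split turned with the scaling, to 10 rising and 8 falling after median centring, 13 and 8 with voom, and 5 and 22 after quantile normalization. The number that rose was 4 without DMSO replicate 2 or MI-2-2 replicate 2, and the number that fell was 8 without DMSO replicate 1 or MI-2-2 replicate 1 and 7 without MI-2-2 replicate 3. The libraries did not overlap for 41 of the 78 members and for 69.2% of all genes. The F test of a difference in the MI-2-2 effect between the 3 constructs was passed by 54 of the 78 members, and by 52.8% of all genes tested. In complexes I, II and III, 23 of 35, 4 of 4 and 6 of 8 members passed. Complex IV had 12 of 14 and complex V 9 of 17. The share in complex V, 52.9%, was near that of all genes.

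Length and level of the members set them apart from the average gene, since 54 of the 84 had a listed length of at most 1000 bases and the median gene tested had 3029. Among all 1017 tested genes of at most 1000 bases, 432 fell and 153 rose in MLL-AF9 cells (median -0.24), and 339 fell and 179 rose in MLL-AF6 cells (median -0.18). The 48 tested members of that length gave 26 that fell and 2 that rose in MLL-AF9 cells (median -0.30), and 0 that fell and 17 that rose in MLL-AF6 cells (median 0.12). Among the 1601 tested genes with a mean RPKM of at least 50, 630 fell and 416 rose in MLL-AF9 cells, and 650 fell and 338 rose in MLL-AF6 cells. Ribosomal protein genes fell in every construct, 76 of 78 in MLL-AF9 cells, 73 in MLL-AF6 cells and 70 in MLL-AF1p cells, with medians of -0.99, -0.48 and -0.49.

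**Figure D2:**
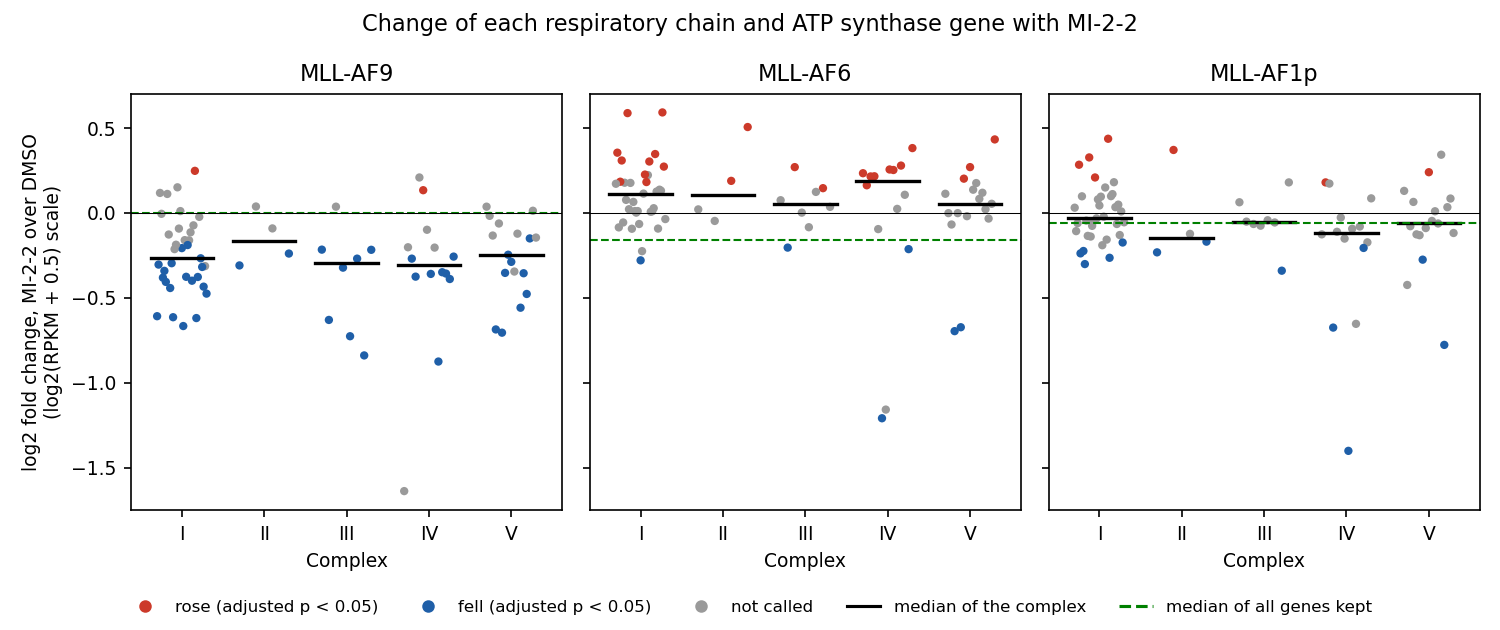
Log2 fold change of each tested member with MI-2-2 (y axis, MI-2-2 over DMSO on the log2(RPKM + 0.5) scale) by complex (x axis) in the 3 constructs; points are genes (red rose, blue fell, grey not called), black bars the median of a complex and green dashes the median of all genes tested. The members' bars lie below the dashed line in MLL-AF9 cells and above it in MLL-AF6 cells in all 5 complexes.

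Promoters of 7 members described below are printed here because nuclear respiratory factor 1 (NRF1), the ETS factor GABP and YY1 are known regulators of respiratory chain genes. They were picked after values and motifs were seen, to show members with and without a motif that fell or rose, and are not the members that moved most. RefSeq windows of 300 bases (250 before and 50 after a transcript start, build GRCm38.p6) were found for 69 of the 84 members, 75 windows in all. The NRF1 core TGCGCA, which reads the same on either strand, was in 25.3% of the member windows and in 7.76% of all 32851 windows. The ETS motif CCGGAAG, on either strand, was in 21.3% and 8.86%, the YY1 motif AAGATGGC in 16% and 2.75%, and the E-box CACGTG, which Myc can bind, in 12.0% and 7.15%. The 4 motifs were searched one by one and do not contain one another, and the median GC content was 57.3% in the member windows and 52.7% in all. In the sequences below, 5′ to 3′ on the gene's strand, NRF1 and ETS motifs are in capitals. Uqcrc1 (chr9:108936398-108936697, plus strand) and Ndufa6 (chr15:82354242-82354541, minus strand) hold NRF1 motifs and fell in MLL-AF9 cells:
Uqcrc1: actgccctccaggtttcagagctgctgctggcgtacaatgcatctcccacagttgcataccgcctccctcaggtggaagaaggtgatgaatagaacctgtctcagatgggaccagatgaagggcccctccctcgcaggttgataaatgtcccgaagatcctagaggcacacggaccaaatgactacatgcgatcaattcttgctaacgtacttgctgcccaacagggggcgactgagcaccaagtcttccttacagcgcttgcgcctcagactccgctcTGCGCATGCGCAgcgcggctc
Ndufa6: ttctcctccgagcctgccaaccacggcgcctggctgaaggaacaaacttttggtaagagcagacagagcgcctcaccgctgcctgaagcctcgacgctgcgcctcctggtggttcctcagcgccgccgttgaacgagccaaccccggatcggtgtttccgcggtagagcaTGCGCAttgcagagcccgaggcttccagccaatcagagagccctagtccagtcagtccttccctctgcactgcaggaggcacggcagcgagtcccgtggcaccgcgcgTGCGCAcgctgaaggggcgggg
Ndufa8 (chr2:36049289-36049588, minus strand) holds an NRF1 motif too and rose in MLL-AF6 and MLL-AF1p cells:
Ndufa8: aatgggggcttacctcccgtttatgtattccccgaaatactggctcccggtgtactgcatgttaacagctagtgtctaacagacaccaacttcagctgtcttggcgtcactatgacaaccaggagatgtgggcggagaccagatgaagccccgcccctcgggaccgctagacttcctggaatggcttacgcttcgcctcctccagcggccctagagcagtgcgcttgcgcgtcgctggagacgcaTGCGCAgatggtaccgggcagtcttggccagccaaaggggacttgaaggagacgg
Uqcrh (chr4:116075021-116075320, minus strand), which also fell in MLL-AF9 cells, and Sdhb (chr4:140961021-140961320, plus strand) and Ndufs8 (chr19:3912725-3913024, minus strand), which rose in MLL-AF6 and MLL-AF1p cells, each hold an ETS motif:
Uqcrh: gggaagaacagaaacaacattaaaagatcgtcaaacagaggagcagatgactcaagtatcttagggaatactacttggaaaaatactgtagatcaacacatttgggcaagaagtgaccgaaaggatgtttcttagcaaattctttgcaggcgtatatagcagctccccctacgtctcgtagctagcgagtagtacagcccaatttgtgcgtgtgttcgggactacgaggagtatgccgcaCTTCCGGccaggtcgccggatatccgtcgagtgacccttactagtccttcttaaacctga
Sdhb: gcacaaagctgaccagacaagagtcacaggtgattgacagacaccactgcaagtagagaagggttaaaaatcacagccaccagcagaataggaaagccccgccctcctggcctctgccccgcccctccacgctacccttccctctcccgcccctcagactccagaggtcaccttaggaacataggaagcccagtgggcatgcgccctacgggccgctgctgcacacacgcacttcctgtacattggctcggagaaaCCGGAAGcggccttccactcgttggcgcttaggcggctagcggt
Ndufs8: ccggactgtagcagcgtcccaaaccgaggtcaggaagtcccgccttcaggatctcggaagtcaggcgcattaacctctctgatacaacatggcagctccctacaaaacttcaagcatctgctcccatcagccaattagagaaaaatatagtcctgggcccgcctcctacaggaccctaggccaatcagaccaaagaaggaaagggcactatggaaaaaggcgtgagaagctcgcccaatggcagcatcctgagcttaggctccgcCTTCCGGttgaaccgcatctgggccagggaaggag
Cox7a2l (chr17:83514284-83514583, minus strand), which fell in all 3 constructs, holds neither motif in its window:
Cox7a2l: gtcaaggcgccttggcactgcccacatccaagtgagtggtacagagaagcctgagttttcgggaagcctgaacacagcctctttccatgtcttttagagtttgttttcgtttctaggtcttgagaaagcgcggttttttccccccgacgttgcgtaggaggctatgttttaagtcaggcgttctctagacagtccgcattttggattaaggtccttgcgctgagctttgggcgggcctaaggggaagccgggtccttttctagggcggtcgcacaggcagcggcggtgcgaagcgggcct
Each motif stood in promoters of members that fell and of members that rose. Of the 69 members with a window, 18 held the NRF1 motif and 16 the ETS motif, and Atp5d and Cox7a1 held neither. A match describes these letters only and shows no binding.

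Complex I gave 19 members that fell and 1 that rose in MLL-AF9 cells, 1 that fell and 10 that rose in MLL-AF6 cells, and 5 and 4 in MLL-AF1p cells, of 35 tested. The 7 core subunits, which carry the flavin and the iron-sulfur clusters, included 4 that fell in MLL-AF9 cells. Ndufv1, which binds NADH, measured 60.1, 70.4 and 62.9 RPKM in the MLL-AF9 libraries under DMSO and 52.3, 52.8 and 49.5 with MI-2-2. All treated libraries were lower (log2 change -0.32 ± 0.06 (SE), adjusted p = 0.000523), while the changes in MLL-AF6 and MLL-AF1p cells were 0.01 and 0.11, neither called (F test adjusted p = 0.00266). With voom the rise of Ndufv1 in MLL-AF1p cells was called (0.167, adjusted p = 0.0411). Ndufs3, a core subunit that links this arm to the membrane, fell from 72.8 ± 5.16 to 55.9 ± 0.317 RPKM with MI-2-2 in MLL-AF9 cells (log2 change -0.38 ± 0.05 (SE), adjusted p = 1.46e-05).

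Ndufs8, an iron-sulfur subunit next to the coenzyme Q site, went the other way. Its RPKM was 11.9, 12.6 and 12.7 under DMSO and 17.3, 20.2 and 19.3 with MI-2-2 in MLL-AF6 cells (log2 change 0.59 ± 0.10 (SE), adjusted p = 0.000104). In MLL-AF1p cells it was 13.7, 12.5 and 13.4 under DMSO and 17.3, 18.7 and 18.3 with MI-2-2 (log2 change 0.44 ± 0.10 (SE), adjusted p = 0.00182). Every treated library lay above every control in both constructs, and in MLL-AF9 cells the groups overlapped (18.7 and 20.2 RPKM, adjusted p = 0.317; without DMSO replicate 2 the rise was 0.24 and was called, adjusted p = 0.0225). Ndufs1 was not called in any construct, with log2 changes of 0.01, 0.07 and 0.04, although voom called a rise in MLL-AF6 cells (0.21, adjusted p = 0.0134).

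Of 27 tested accessory subunits, which surround the core, 15 fell in MLL-AF9 cells and 7 rose in MLL-AF6 cells. Ndufa6, an accessory subunit of the matrix arm, measured 204, 219 and 232 RPKM under DMSO and 130.4, 142 and 140.5 with MI-2-2 in MLL-AF9 cells (log2 change -0.67 ± 0.07 (SE), adjusted p = 6.54e-07). In MLL-AF6 cells it was 116, 112 and 113 under DMSO and 126, 133 and 128 with MI-2-2 (log2 change 0.18 ± 0.07 (SE), adjusted p = 0.0298), a small rise whose call was lost without DMSO replicate 2 or 3 or MI-2-2 replicate 2 or 3. In MLL-AF1p cells it fell from 136 ± 12.8 to 110.3 ± 5.27 RPKM (log2 change -0.30 ± 0.07 (SE), adjusted p = 0.00201). No treated library overlapped a control library in any of the 3 constructs, and the F test gave an adjusted p of 2.36e-05.

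Ndufa8, an accessory subunit on the intermembrane side, rose in MLL-AF6 cells from 68.2, 67.5 and 71.3 RPKM under DMSO to 105, 99.5 and 109 with MI-2-2 (log2 change 0.59 ± 0.06 (SE), adjusted p = 1.68e-06). It also rose in MLL-AF1p cells (log2 change 0.33 ± 0.06 (SE), adjusted p = 0.000748), where the levels were 75.4 ± 7.68 and 94.4 ± 1.55 RPKM. In MLL-AF9 cells they were 85.1 ± 3.46 and 94.5 ± 2.01 RPKM without overlap, and the test was missed (adjusted p = 0.0581), though without DMSO replicate 2 it was passed (0.18, adjusted p = 0.0425). Ndufb5, in the membrane arm, fell in all 3 constructs (-0.43, -0.28 and -0.22, F test adjusted p = 0.0889), and with voom the fall in MLL-AF6 cells was no longer called (adjusted p = 0.0931). Ndufv3, an accessory subunit at the NADH site, fell in MLL-AF9 cells from 72.3 ± 6.9 to 46.9 ± 0.818 RPKM (log2 change -0.61 ± 0.10 (SE), adjusted p = 0.000101). Its fall in MLL-AF1p cells (adjusted p = 0.045) was lost when any library other than DMSO replicate 2 was left out, and in MLL-AF6 cells the change was -0.23 (adjusted p = 0.0706; 0.00835 without DMSO replicate 1).

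Ndufa11, which holds the membrane arm together, fell in MLL-AF9 cells from 26.9 ± 1.37 to 19.7 ± 0.229 RPKM (log2 change -0.44 ± 0.06 (SE), adjusted p = 1.6e-05). Ndufs4, a late-joining subunit whose loss causes Leigh syndrome, rose in MLL-AF6 cells from 24.4 ± 2 to 28.7 ± 2.84 RPKM (log2 change 0.23 ± 0.09 (SE), adjusted p = 0.0363); without MI-2-2 replicate 2 the change was 0.15 (adjusted p = 0.172), and the call was also lost without DMSO replicate 1 or 3 or MI-2-2 replicate 3. Ndufa5, an accessory subunit of the matrix arm, was not called in any construct (log2 changes of -0.21, 0.13 and -0.06), although its fall in MLL-AF9 cells was without MI-2-2 replicate 2 (-0.29, adjusted p = 0.0495). Ndufa4, named as a complex I gene and now assigned to complex IV, was higher with MI-2-2 in all 3 constructs by 0.25, 0.27 and 0.28 (adjusted p = 0.0345, 0.0214 and 0.0221). Its MLL-AF9 libraries overlapped (222, 162 and 173 RPKM under DMSO and 209, 236 and 212 with MI-2-2), and there the change was 0.16 (adjusted p = 0.167) without DMSO replicate 2 and 0.38 (adjusted p = 0.000304) without DMSO replicate 1. Its calls were also lost without DMSO replicate 3 or MI-2-2 replicate 2 or 3 in MLL-AF9 cells, without DMSO replicate 1 or MI-2-2 replicate 2 in MLL-AF6 cells, and without DMSO replicate 2 or MI-2-2 replicate 2 in MLL-AF1p cells.

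Complex II, the succinate dehydrogenase of the citric acid cycle, was split between its genes. All 4 passed the F test, as did 52.8% of all genes. Sdhb, the iron-sulfur subunit, measured 59.9, 59.7 and 57.9 RPKM under DMSO and 85.0, 82.4 and 85.2 with MI-2-2 in MLL-AF6 cells (log2 change 0.51 ± 0.05 (SE), adjusted p = 6.08e-07). In MLL-AF1p cells it measured 59.7, 60.3 and 61.8 and 79.2, 77.6 and 78.7 RPKM (log2 change 0.37 ± 0.05 (SE), adjusted p = 2.71e-05). Treated and control libraries stood well apart in both constructs, and in MLL-AF9 cells they overlapped, at 68.7 ± 3.92 and 70.5 ± 3.3 RPKM (F test adjusted p = 0.000267).

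Sdha, the flavoprotein that binds succinate, fell in MLL-AF9 cells from 94.4, 84.1 and 86.2 RPKM to 74.9, 74.4 and 74.4 (log2 change -0.24 ± 0.05 (SE), adjusted p = 0.000789), and in MLL-AF6 cells its libraries overlapped (97.6 and 99.2 RPKM), although voom called a rise there (0.16, adjusted p = 0.023). In MLL-AF1p cells Sdha was 107 ± 1.07 under DMSO and 98.0 ± 1.68 RPKM with MI-2-2, without overlap and short of the threshold (adjusted p = 0.0568). Sdhd, a membrane anchor, fell in MLL-AF9 cells (log2 change -0.31 ± 0.05 (SE), adjusted p = 0.000178) and in MLL-AF1p cells (log2 change -0.23 ± 0.05 (SE), adjusted p = 0.00268). Sdhc, the other anchor, rose in MLL-AF6 cells from 94.0 ± 4.36 to 107 ± 5.27 RPKM (log2 change 0.19 ± 0.06 (SE), adjusted p = 0.00941) and fell in MLL-AF1p cells from 108 ± 5.78 to 95.9 ± 0.826 RPKM (log2 change -0.17 ± 0.06 (SE), adjusted p = 0.0222). The fall of Sdhc was no longer called after median centring, with voom, or without DMSO or MI-2-2 replicate 1 or 3.

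In complex III 7 of the 8 genes fell in MLL-AF9 cells and none rose; in MLL-AF6 cells 2 rose and 1 fell, and in MLL-AF1p cells 1 fell. Uqcrh, the hinge protein that helps dock cytochrome c, measured 461, 450.1 and 479 RPKM under DMSO and 264, 249 and 263 with MI-2-2 in MLL-AF9 cells (log2 change -0.84 ± 0.06 (SE), adjusted p = 2.23e-08). MLL-AF6 cells measured 250, 256 and 271 RPKM under DMSO and 259, 234 and 240.1 with MI-2-2, with overlap (log2 change -0.08 ± 0.06 (SE), adjusted p = 0.266). In MLL-AF1p cells Uqcrh fell from 324 ± 22.8 to 256 ± 13 RPKM (log2 change -0.34 ± 0.06 (SE), adjusted p = 0.000433), and the F test gave an adjusted p of 3.14e-05. A pseudogene, Gm12854, overlaps the annotated span of Uqcrh and could share its reads.

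Uqcrc1, a core subunit facing the matrix, gave the smallest F test p of all members (adjusted p = 1.75e-05). It measured 175, 186 and 183 RPKM under DMSO and 107, 112 and 109 with MI-2-2 in MLL-AF9 cells (log2 change -0.73 ± 0.06 (SE), adjusted p = 8.71e-08). In MLL-AF6 cells it fell from 123 ± 5.86 to 107 ± 2.43 RPKM (log2 change -0.20 ± 0.06 (SE), adjusted p = 0.0105), a call lost with median centring and with voom (adjusted p = 0.129 and 0.446), and in MLL-AF1p cells the libraries overlapped at 133 ± 11.7 and 138 ± 4.41 RPKM.

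Uqcrfs1, the Rieske iron-sulfur protein, moved in opposite directions. It was 64.0, 79.6 and 78.0 RPKM under DMSO and 62.5, 64.1 and 63.0 with MI-2-2 in MLL-AF9 cells (log2 change -0.22 ± 0.07 (SE), adjusted p = 0.0145), where replicate 1 under DMSO lay among the treated libraries, and the fall was not called without DMSO replicate 2 or 3 (adjusted p = 0.0668 and 0.0674) or with the construct fitted alone (0.109). In MLL-AF6 cells it rose without overlap from 65.8 ± 2.77 to 79.5 ± 1.31 RPKM (log2 change 0.27 ± 0.07 (SE), adjusted p = 0.00371; F test adjusted p = 0.00259). Uqcrb, which neighbours the cytochrome b subunit, was the gene of complex III that did not fall in MLL-AF9 cells (log2 changes of 0.04, 0.12 and -0.07). Its rise in MLL-AF6 cells was short of the threshold (adjusted p = 0.0519). That rise was called after median centring (0.207, adjusted p = 0.00405) and with voom (0.265, adjusted p = 0.00126). Cyc1, the cytochrome c1 subunit of the same complex, lies outside the symbol rule. It fell in MLL-AF9 cells (log2 change -0.24 ± 0.05 (SE), adjusted p = 0.000641) and rose in MLL-AF6 cells (log2 change 0.21 ± 0.05 (SE), adjusted p = 0.00216) and in MLL-AF1p cells (log2 change 0.51 ± 0.05 (SE), adjusted p = 9.55e-07).

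**Figure D3:**
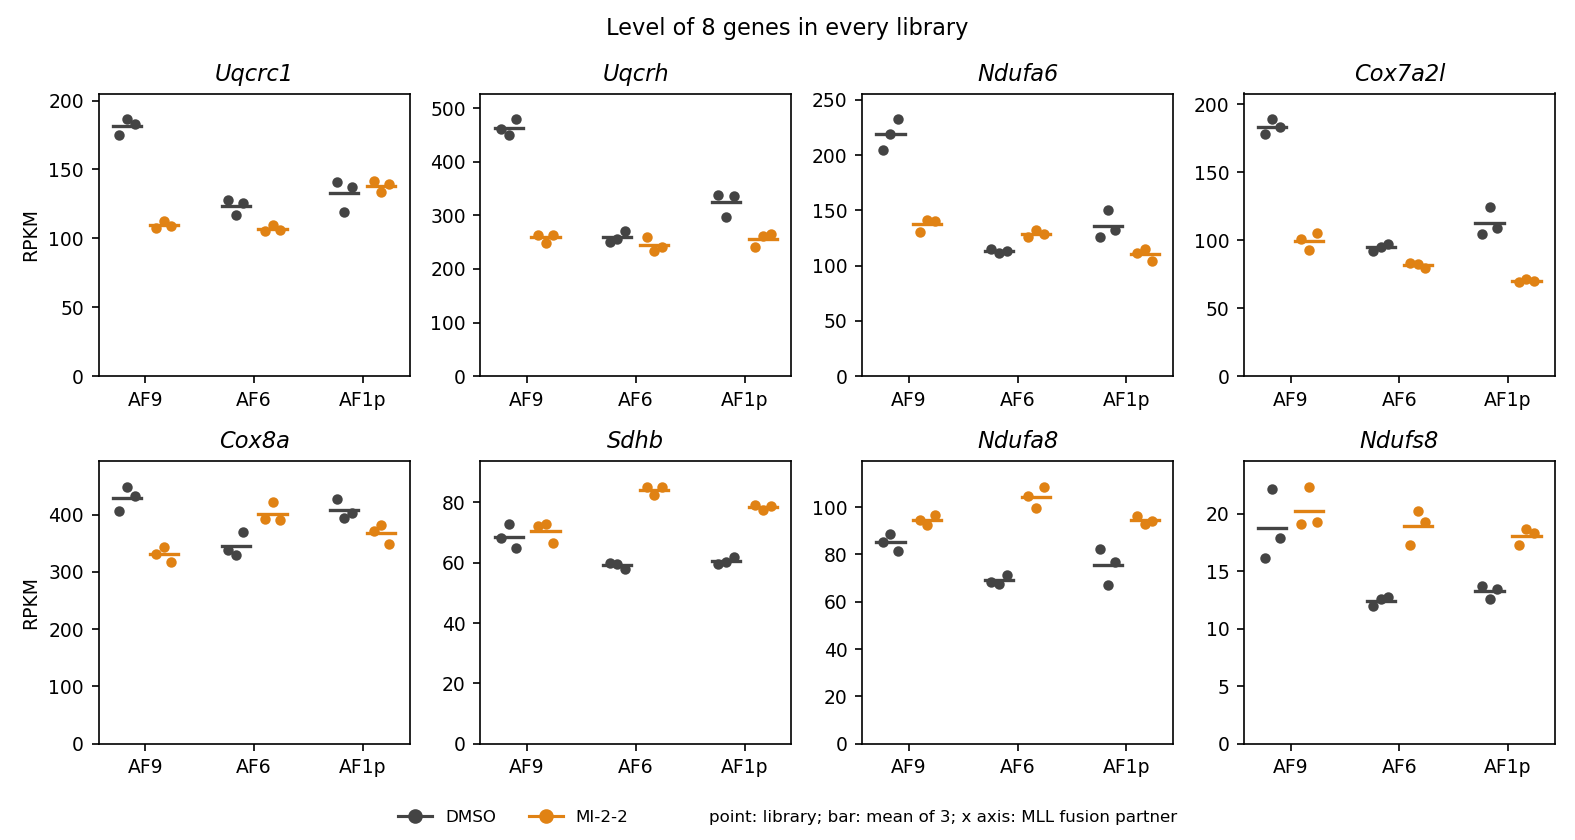
RPKM of 8 members (y axes start at 0) in every library by MLL fusion partner (x axis), under DMSO (grey) and MI-2-2 (orange), with the mean of 3 as a bar. Uqcrc1, Uqcrh, Ndufa6 and Cox7a2l are highest in MLL-AF9 cells under DMSO, and Sdhb, Ndufa8 and Ndufs8 are lowest in MLL-AF6 and MLL-AF1p cells under DMSO.

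In complex IV most called genes fell in MLL-AF9 cells and rose in MLL-AF6 cells. Of 14 tested genes 8 fell and 1 rose in MLL-AF9 cells, 2 fell and 8 rose in MLL-AF6 cells, and 3 fell and 1 rose in MLL-AF1p cells. The F test was passed by 12 of the 14, and by 52.8% of all genes. Cox6b2 is 1 of the 2 that fell in MLL-AF6 cells and passed the filter only through the controls of that construct. Cox8a, the ubiquitous form of the smallest subunit, measured 406, 449 and 432 RPKM under DMSO and 332, 343 and 317 with MI-2-2 in MLL-AF9 cells (log2 change -0.38 ± 0.06 (SE), adjusted p = 0.000101). In MLL-AF6 cells it measured 339, 329 and 369.7 and 392, 422 and 389.9 RPKM (log2 change 0.22 ± 0.06 (SE), adjusted p = 0.00788). The treated libraries were thus all below the controls in the first and all above them in the second construct (F test adjusted p = 0.000255), although the rise in MLL-AF6 cells was not called after quantile normalization (0.09, adjusted p = 0.235).

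Cox6a1, Cox6b1 and Cox7a2, 3 more of the ubiquitous small subunits, followed the same course. Cox6a1 went from 509.6 ± 26.7 to 398 ± 12.1 RPKM in MLL-AF9 cells (log2 change -0.36 ± 0.08 (SE), adjusted p = 0.00129) and from 332 ± 27.6 to 395 ± 4 RPKM in MLL-AF6 cells (log2 change 0.25 ± 0.08 (SE), adjusted p = 0.0134). For Cox6b1 the log2 changes were -0.27 and 0.16 (adjusted p = 0.0019 and 0.0374), and for Cox7a2 -0.36 and 0.23 (adjusted p = 0.000319 and 0.00797). The rises of Cox6a1 and Cox6b1 in MLL-AF6 cells were not called after quantile normalization, that of Cox6a1 was lost without DMSO replicate 2 (adjusted p = 0.0725), and that of Cox6b1 was lost without any 1 of the libraries apart from DMSO replicate 3. In MLL-AF1p cells neither gene was called, but without DMSO replicate 1 Cox6a1 rose (0.26, adjusted p = 0.0134) and without DMSO replicate 2 Cox6b1 fell (-0.18, adjusted p = 0.0267). Cox5b, a subunit that binds zinc, rose in MLL-AF6 cells (log2 change 0.26 ± 0.09 (SE), adjusted p = 0.0208), a call lost without DMSO replicate 1 or MI-2-2 replicate 2. In MLL-AF9 cells it was 246 ± 29.2 and 213 ± 10.8 RPKM (adjusted p = 0.061; 0.0249 without DMSO replicate 1).

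Cox4i1 fell in MLL-AF9 cells from 554, 580.0 and 550.3 RPKM to 439.7, 445 and 436 (log2 change -0.35 ± 0.05 (SE), adjusted p = 2.84e-05). In MLL-AF6 cells it was 431 ± 16.2 under DMSO and 464 ± 11.7 RPKM with MI-2-2 without overlap (adjusted p = 0.0843), and with voom the rise was called (0.25, adjusted p = 0.00258). In MLL-AF1p cells the change of Cox4i1 was -0.13 (adjusted p = 0.055; -0.17 and called without DMSO replicate 2, adjusted p = 0.0124). Cox5a, which binds a thyroid hormone metabolite, was higher with MI-2-2 by 0.13, 0.28 and 0.18 (adjusted p = 0.0384, 0.000308 and 0.0105), and its MLL-AF9 call was lost when any library but DMSO replicate 1 was left out.

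Cox7a2l, which carries a complex IV name but is no subunit of the isolated enzyme, fell in all 3 constructs. It measured 178, 189 and 183 RPKM under DMSO and 101, 93.1 and 106 with MI-2-2 in MLL-AF9 cells (log2 change -0.88 ± 0.06 (SE), adjusted p = 1.35e-08). In MLL-AF1p cells the values were 105, 124 and 109 and 69.3, 71.3 and 69.9 RPKM (log2 change -0.68 ± 0.06 (SE), adjusted p = 5.36e-07). In MLL-AF6 cells they were 91.9, 95.2 and 97.3 and 83.5, 82.3 and 79.3 RPKM (log2 change -0.21 ± 0.06 (SE), adjusted p = 0.00922), a smaller fall that was not called with median centring or voom (adjusted p = 0.109 and 0.376). Treated and control libraries were apart in all 3 constructs, and the effect differed between them (F test adjusted p = 9.23e-05).

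**Figure D4:**
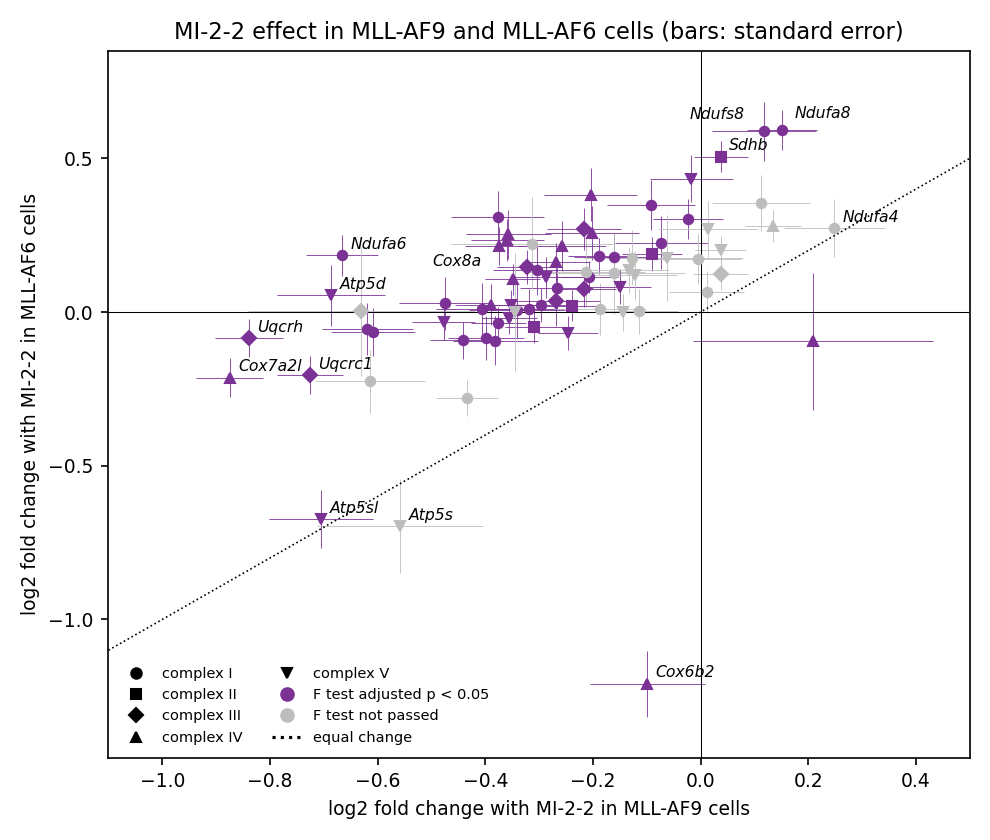
Log2 fold change with MI-2-2 in MLL-AF9 cells (x axis) against that in MLL-AF6 cells (y axis) for 77 of the 78 tested members, with standard errors; symbols give the complex, purple marks members whose effect differed between constructs (F test), and the dotted line marks equal change. Cox6a2 is not drawn because its change in MLL-AF9 cells, -1.64, lies outside the axis. Most points lie above the dotted line, and 11 members rose in 1 construct and fell in another.

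Complex V gave 9 members that fell and none that rose in MLL-AF9 cells, 2 and 3 in MLL-AF6 cells, and 2 and 1 in MLL-AF1p cells, of 17. In MLL-AF6 and in MLL-AF1p cells the 2 that fell were Atp5s and Atp5sl, which are described below. Of the 5 genes of the catalytic head, 4 fell in MLL-AF9 cells and none was called in the other constructs. Atp5a1, the alpha subunit, measured 374, 344 and 341 RPKM under DMSO and 281, 275 and 271 with MI-2-2 in MLL-AF9 cells (log2 change -0.36 ± 0.05 (SE), adjusted p = 2.99e-05), without overlap. Atp5b measured 609, 577 and 517 and 488, 479.6 and 464 RPKM, also without overlap (log2 change -0.25 ± 0.06 (SE), adjusted p = 0.00154). In MLL-AF6 and MLL-AF1p cells the changes were -0.02 and 0.07 for Atp5a1 and -0.07 and 0.03 for Atp5b, and the F test adjusted p was 0.000636 and 0.0225. Atp5d, the delta subunit of the central stalk, measured 241, 331 and 300 RPKM under DMSO and 187, 175 and 176 with MI-2-2 in MLL-AF9 cells (log2 change -0.69 ± 0.10 (SE), adjusted p = 3.03e-05). Its level in MLL-AF6 cells was 156 ± 9.97 and 162 ± 8.05 RPKM, and in MLL-AF1p cells 165 ± 19.6 and 156 ± 1.88 RPKM (F test adjusted p = 0.00125).

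Of the 4 genes of the peripheral stalk, which holds the head in place, 3 fell in MLL-AF9 cells (Atp5h, Atp5j and Atp5o), whereas of the 3 small membrane subunits (Atp5j2, Atp5k and Atp5l) none did. Subunit c, the rotating ring, is encoded by Atp5g1, Atp5g2 and Atp5g3, which give the same mature protein. Atp5g3 rose in MLL-AF6 cells from 296, 299.7 and 313 RPKM to 417, 396 and 415 (log2 change 0.43 ± 0.08 (SE), adjusted p = 0.000196), with no overlap. It also rose in MLL-AF1p cells (log2 change 0.24 ± 0.08 (SE), adjusted p = 0.0185), where control replicate 2 stood low (277, 214 and 266 RPKM) and the change without it was 0.13 (adjusted p = 0.0856); the call was also lost without MI-2-2 replicate 2 and after quantile normalization. Atp5g2 varied widely among the MLL-AF9 controls (232, 450.5 and 340.5 RPKM) and was not called in any construct, though without DMSO replicate 1 of MLL-AF9 cells its fall was (-0.60, adjusted p = 0.00591). Atp5g1 was not called either, with log2 changes of -0.06, 0.18 and 0.34, although voom called its rise in MLL-AF1p cells (0.40, adjusted p = 0.0233).

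A pair of low genes that carry the Atp5 name fell in all 3 constructs, together with Cox7a2l and Ndufb5. Atp5s, also known as coupling factor B, measured 7.81, 11.9 and 9.4 RPKM under DMSO and 5.52, 5.6 and 5.03 with MI-2-2 in MLL-AF1p cells (log2 change -0.78 ± 0.15 (SE), adjusted p = 0.00077), and its log2 changes were -0.56, -0.70 and -0.78 (F test adjusted p = 0.655). Atp5sl, an assembly factor of complex I, measured 14.8, 13.7 and 15.8 and 8.29, 9.25 and 9.07 RPKM in MLL-AF9 cells (log2 change -0.71 ± 0.10 (SE), adjusted p = 1.46e-05) and 12.9, 12.2 and 12.4 and 6.74, 8.25 and 8.03 RPKM in MLL-AF6 cells (log2 change -0.67 ± 0.10 (SE), adjusted p = 2.57e-05). In MLL-AF1p cells its libraries overlapped (log2 change -0.28 ± 0.10 (SE), adjusted p = 0.0286), and this call was lost without DMSO replicate 1 or 3 or MI-2-2 replicate 2 or 3.

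Across constructs, 24 members fell in MLL-AF9 cells alone among the 3 tests, 9 fell in MLL-AF9 cells and rose in MLL-AF6 cells, 8 rose in MLL-AF6 cells alone, 4 rose in MLL-AF6 and MLL-AF1p cells (Atp5g3, Ndufa8, Ndufs8 and Sdhb), 6 fell in MLL-AF9 and MLL-AF1p cells (Cox6c, Ndufa3, Ndufc2, Ndufv3, Sdhd and Uqcrh), and 15 were not called in any. A call in one construct and none in another is no test of a difference, which the F test above gives.

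The constructs also differed under DMSO alone, and these comparisons share their control libraries with those of MI-2-2. Of 78 members, 52 were lower and 3 higher in MLL-AF6 than in MLL-AF9 cells (all genes: 24.5% lower, 29.1% higher), with a median log2 difference of -0.30 against 0.04 for all genes. In MLL-AF1p compared with MLL-AF9 cells 32 were lower and 13 higher (all genes: 28.6% lower, 36.5% higher), with a median of -0.09, and after median centring the counts were 37 and 8. In MLL-AF1p compared with MLL-AF6 cells 43 were higher and 5 lower (all genes: 28.8% higher, 23.7% lower), with a median of 0.22. Cox6b2 is counted among the 3 higher in MLL-AF6 than in MLL-AF9 cells and among these 5. It passed the filter only through the MLL-AF6 controls, so it had to differ in both comparisons. Called members were thus mostly lower in MLL-AF6 controls than in those of either other construct.

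In complex I, 28 of 35 genes were lower in MLL-AF6 than in MLL-AF9 controls. The log2 difference of MLL-AF6 minus MLL-AF9 controls was -0.94 ± 0.07 (SE) for Ndufa6 (adjusted p = 1.64e-08) and -0.95 ± 0.06 (SE) for Cox7a2l (adjusted p = 6.26e-09). It was -0.89 ± 0.10 (SE) for Atp5d (adjusted p = 2.51e-06) and -0.84 ± 0.06 (SE) for Uqcrh (adjusted p = 2.64e-08). The changes of these 4 genes with MI-2-2 in MLL-AF9 cells, which rest on the same MLL-AF9 controls, were -0.67, -0.88, -0.69 and -0.84. Sdha was higher in MLL-AF6 and MLL-AF1p controls than in MLL-AF9 controls (0.15 ± 0.05 (SE) and 0.27 ± 0.05 (SE); adjusted p = 0.0219 and 0.000194). Ndufs4 and Ndufa5 were highest in MLL-AF1p controls (41.6 ± 1.77 and 78.1 ± 2.87 RPKM against 28.1 ± 1.63 and 53.0 ± 6.43 RPKM in MLL-AF9 controls; adjusted p = 4.48e-05 and 0.000364). Ndufs3 was lowest there (45.3 ± 0.939 RPKM; adjusted p = 2.2e-08 against MLL-AF9 controls).

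Several subunits of complex IV come in tissue-restricted forms, which were lower than their ubiquitous partners or at 0. Cox7b2 and Cox8c had 0 reads in every library, Cox8b had at most 1 read, Cox4i2, a form of lung and of low oxygen, had at most 7 and Ndufa4l2 at most 9. Ndufs5, an accessory subunit of complex I present in most tissues, is also listed at 0 in all 18 libraries, which can be a failed assignment of reads rather than a level. Their ubiquitous partners were high, such as Cox4i1 and Cox8a above. Cox6b2, a form known from testis, passed the filter only through MLL-AF6 controls, so it had to differ there, and its values are given without weight on the test. It measured 2.6, 2.25 and 2.63 RPKM in MLL-AF6 cells under DMSO and 0.864, 0.715 and 0.804 with MI-2-2 (log2 change -1.21), and at most 0.209 RPKM in any library of the other constructs.

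Cox7a1, the heart and muscle form of subunit 7a, was low but present in every library. In MLL-AF1p cells it measured 10.8, 9.54 and 12.8 RPKM under DMSO and 2.91, 5.4 and 3.57 with MI-2-2 (log2 change -1.40 ± 0.22 (SE), adjusted p = 0.000116), with no overlap, while it was not called in MLL-AF9 and MLL-AF6 cells (0.21 and -0.10; F test adjusted p = 0.00149). The muscle markers Myh6, Myh7, Ckm, Acta1 and Tnnt2 were all under an RPKM of 1. Cox6a2, the muscle form of subunit 6a, was scattered and not called in any construct. Under DMSO it measured 0.068, 9.63 and 1.25 RPKM in MLL-AF9 cells, 1.15, 10.4 and 5.79 in MLL-AF6 cells and 0.402, 8.38 and 0.927 in MLL-AF1p cells. The highest control carried the number 2 in all 3 constructs, and without DMSO replicate 1 of MLL-AF9 cells its fall there was called (-2.60, adjusted p = 0.0334). The span of Cox6a2 overlaps that of Itgad, an integrin gene, and reads were not told apart by strand. In all, the spans of 27 members overlap another annotated gene and those of 15 a protein-coding one, among them Atp5d with Cbarp, Atp5j with Gabpa and Ndufa13 with Tssk6.

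**Figure D5:**
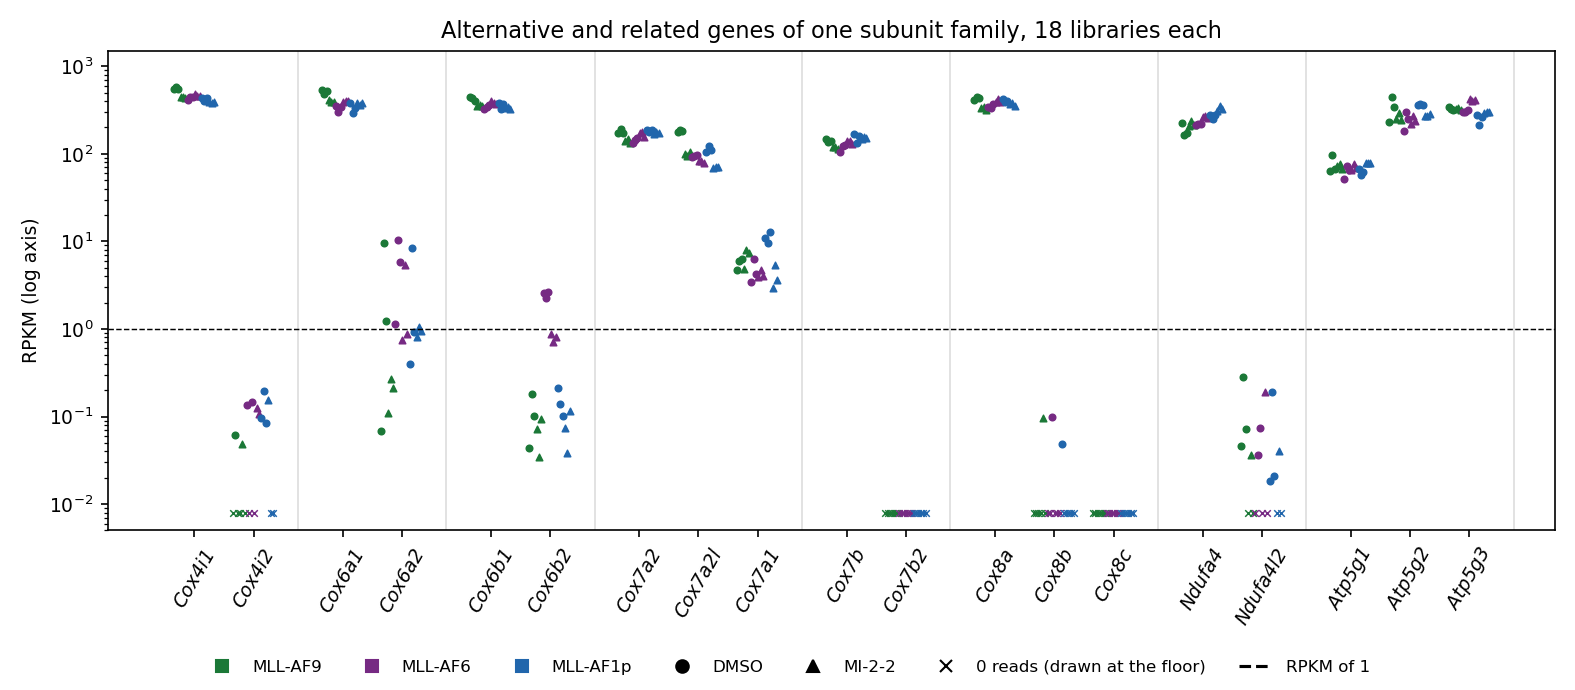
RPKM on a log axis of alternative and related genes of one subunit family in all 18 libraries, by construct (colour) and treatment (circles DMSO, triangles MI-2-2); crosses at the floor are libraries with 0 reads and the dashed line is an RPKM of 1. Ubiquitous forms lie near or above 100 in every family with restricted partners, which lie near or below 10.

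Other genes of oxidative metabolism were grouped in lists, also chosen with earlier results of these data known. Of 19 genes for electron carriers and coenzyme Q synthesis, 5 rose and 5 fell in MLL-AF9 cells, 3 rose and 4 fell in MLL-AF6 cells, and 4 rose and 4 fell in MLL-AF1p cells. These shares, such as 26.3% each way in MLL-AF9 cells, were near or below those of all genes (28.5% rose and 27.9% fell in MLL-AF9 cells). Cycs, cytochrome c, rose in MLL-AF9 cells (log2 change 0.29 ± 0.12 (SE), adjusted p = 0.0447) and in MLL-AF1p cells (log2 change 0.35 ± 0.12 (SE), adjusted p = 0.0228). The first call was lost without any 1 library apart from DMSO replicate 1, whose absence gave 0.45, and the second without DMSO replicate 1 or 3 or MI-2-2 replicate 2. Coq9, a lipid-binding coenzyme Q biosynthesis protein, changed by -0.51, -0.28 and -0.42 (adjusted p = 0.000674, 0.0337 and 0.00376), and in MLL-AF6 cells by -0.16 (adjusted p = 0.189) without DMSO replicate 2, a call also lost without MI-2-2 replicate 1 or 3 and with every other scaling. Pdss2, which makes the coenzyme Q tail, fell in MLL-AF9 cells (log2 change -0.46 ± 0.10 (SE), adjusted p = 0.0014) and MLL-AF6 cells (log2 change -0.55 ± 0.10 (SE), adjusted p = 0.000307). Dhodh, a pyrimidine synthesis enzyme that feeds coenzyme Q, fell in MLL-AF6 cells (log2 change -0.60 ± 0.18 (SE), adjusted p = 0.0106), a call lost without DMSO replicate 2 or MI-2-2 replicate 1, and its change of -0.28 in MLL-AF9 cells was called (-0.51, adjusted p = 0.0107) without DMSO replicate 1.

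Of 38 tested assembly factors, 15 fell and 2 rose in MLL-AF9 cells, 11 and 2 in MLL-AF6 cells, and 9 and 3 in MLL-AF1p cells. The share that fell was 39.5%, 28.9% and 23.7% in the 3 constructs, against 27.9%, 38.9% and 26.3% of all genes, so in MLL-AF6 and MLL-AF1p cells it was below that of all genes. Uqcc, an assembly factor of complex III, fell in MLL-AF9 cells from 11.8 ± 1.03 to 6.72 ± 0.318 RPKM (log2 change -0.77 ± 0.08 (SE), adjusted p = 5.65e-07) and from 10.7 ± 0.562 to 6.87 ± 0.738 RPKM in MLL-AF6 cells (log2 change -0.60 ± 0.08 (SE), adjusted p = 8.52e-06). Its fall in MLL-AF1p cells (-0.20, adjusted p = 0.0432) was lost without any 1 of the 6 libraries, and with every other scaling. Cox14, needed for the first steps of complex IV assembly, changed by -0.69, -0.25 and -0.43 (adjusted p = 9e-08, 0.00227 and 2.89e-05), with the MLL-AF6 change at -0.16 after median centring and its call lost under voom (adjusted p = 0.19). Cox19, which helps bring copper to complex IV, changed by -0.68, -0.45 and -0.13 and was called in MLL-AF9 and MLL-AF6 cells.

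Of 20 genes of the citric acid cycle and pyruvate dehydrogenase, 10 fell and 1 rose in MLL-AF9 cells, 3 and 3 in MLL-AF6 cells, and 2 fell and 4 rose in MLL-AF1p cells. The share that fell was 50%, 15% and 10%, against the same 27.9%, 38.9% and 26.3% of all genes. Suclg2, a subunit of succinyl-CoA synthetase, fell in MLL-AF9 cells (log2 change -0.52 ± 0.12 (SE), adjusted p = 0.0019); in MLL-AF6 cells its change of -0.11 was called without DMSO replicate 1 (-0.27, adjusted p = 0.0384). Pcx, pyruvate carboxylase, fell in MLL-AF9 cells (log2 change -0.39 ± 0.15 (SE), adjusted p = 0.0322), a call lost without DMSO replicate 1 or 3 or MI-2-2 replicate 2, and its MLL-AF1p change of -0.25 was called without DMSO replicate 2 (-0.41, adjusted p = 0.0343). Me2, the mitochondrial malic enzyme, fell in MLL-AF1p cells from 71.5 ± 11.9 to 51.0 ± 1.23 RPKM (log2 change -0.47 ± 0.11 (SE), adjusted p = 0.00241). Its fall in MLL-AF6 cells (adjusted p = 0.0395) was lost without any 1 library apart from MI-2-2 replicate 2, and with every other scaling. The change of Me2 in MLL-AF9 cells was called without DMSO replicate 1 (0.32, adjusted p = 0.0156).

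Of 20 tested genes for expression of mitochondrial DNA and control of mitochondrial mass, 8 fell and 2 rose in MLL-AF9 cells, 11 and 1 in MLL-AF6 cells, and 5 and 3 in MLL-AF1p cells. The share that fell was 40%, 55% and 25%, against 27.9%, 38.9% and 26.3% of all genes. Tfam, which packages and transcribes mitochondrial DNA, fell in all 3 constructs by -0.32, -0.40 and -0.38 (adjusted p = 0.012, 0.00272 and 0.00518), with the MLL-AF9 call lost without MI-2-2 replicate 1 (adjusted p = 0.0572). Polg2, a subunit of the mitochondrial DNA polymerase, fell in all 3 as well (-0.63, -0.73 and -0.74). Myc, a transcription factor that drives ribosome and mitochondrial genes, fell in MLL-AF9 cells from 36.2 ± 8.08 to 14.0 ± 0.272 RPKM (log2 change -1.32 ± 0.24 (SE), adjusted p = 0.0002) and in MLL-AF6 cells (log2 change -0.88 ± 0.24 (SE), adjusted p = 0.00486; 0.0581 with the construct fitted alone). In MLL-AF1p cells Myc was 21.9 ± 0.177 under DMSO and 15.4 ± 0.491 RPKM with MI-2-2. This change of -0.495 was not called (adjusted p = 0.0984), but it was with the construct fitted alone (adjusted p = 6.81e-05). Ppargc1b, a coactivator of these genes, rose in MLL-AF6 cells from 0.927 ± 0.149 to 2.37 ± 0.0117 RPKM (log2 change 1.01 ± 0.12 (SE), adjusted p = 3.19e-06) and in MLL-AF9 cells from 0.31 ± 0.103 to 0.821 ± 0.189 RPKM (log2 change 0.70 ± 0.12 (SE), adjusted p = 0.000109). At such low levels the size in MLL-AF9 cells depended on the scale: it was 1.18 with a pseudocount of 0.1, 1.41 with voom and 0.41 after quantile normalization. Ppargc1a was under an RPKM of 1 in every library.

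Of 11 tested carriers of the inner and outer membranes and regulators of the ATP synthase, 4 fell and 2 rose in MLL-AF9 cells, 1 fell and 3 rose in MLL-AF6 cells, and 2 fell and 1 rose in MLL-AF1p cells. The share that fell was 36.4%, 9.09% and 18.2%, against 27.9%, 38.9% and 26.3% of all genes. Vdac2, an outer membrane channel, rose in MLL-AF9 cells (log2 change 0.30 ± 0.05 (SE), adjusted p = 0.000194) and MLL-AF6 cells (log2 change 0.44 ± 0.05 (SE), adjusted p = 6.4e-06). Vdac3, its relative, changed by -0.37, -0.33 and -0.35 (adjusted p = 0.0132, 0.0267 and 0.0256). These calls were lost without DMSO replicate 2 in each construct (-0.21 in MLL-AF1p cells). The MLL-AF6 call was also lost without DMSO replicate 3 or MI-2-2 replicate 1 or 3, and with every other scaling. The MLL-AF1p call was also lost without MI-2-2 replicate 1 or 3. Ppif, cyclophilin D, and Ucp2, an inner membrane carrier, were not called in any construct, with changes of -0.36, -0.42 and 0.01 and -0.15, 0.13 and -0.01. With voom the rise of Ucp2 in MLL-AF6 cells was called (0.274, adjusted p = 0.0427). For Ppif the fall was called without DMSO replicate 1 in MLL-AF9 cells (-0.55, adjusted p = 0.0208) and without DMSO replicate 1 or MI-2-2 replicate 2 in MLL-AF6 cells (adjusted p = 0.0136 and 0.0363).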

How the data were processed

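Polyadenylated RNA of 18 libraries was sequenced after unstranded library preparation, per the labels' protocols. The authors deposited a table of RPKM values per gene with gene lengths. CASAVA 1.8.2, Bowtie2 2.0.0.7, HTSeq and edgeR and the build mm9 are named in the submitters' processing notes, which do not state their roles here. Since values multiplied by gene length add up to 1 fixed total per library, an RPKM is a share of counted reads and a gene can fall because others rose. Whole reads were recovered for 100% of values (tolerance 0.05 reads), giving depths of 21180926 to 56304997 reads. Counting intervals would cover counting error only.

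Genes with an RPKM of at least 1 in at least 3 libraries (11238) were fitted with limma 3.58.1 (R 4.3.3) on log2(RPKM + 0.5), which understates changes of low genes, as 6 group means over 18 libraries with a trended prior. P-values are two-sided and Benjamini-Hochberg adjusted over all these genes, and a call is an adjusted p under 0.05. An F test of the 2 interaction terms compared the MI-2-2 effect between constructs. The fit was tested on simulated data. Alternatives changed the pseudocount, filter, scaling, variance prior, replicate block or libraries, or used voom on the recovered reads. Named genes were all Sdh genes; per other complex the 2 lowest and 2 highest by mean log2 change; set core (1 not reported here), subunit c and alternative-form genes; the 4 with the smallest F test p; the 2 highest and 2 lowest called members of each DMSO comparison; and up to 3 genes per related list by mean absolute change, with Cycs, Cyc1, Ppargc1b, Tfam, Myc and Ucp2 added. Ndufs5, Ppargc1a, overlapping genes and members listed by call pattern or stalk were named after their values were seen. The members, lists and this rule were chosen with earlier results of these data known. Promoter sequences came from RefSeq (GRCm38.p6), and no coordinate of the files' build was used. Figures were drawn with matplotlib 3.10.9 under Python 3.11.15.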

Additional observations from a re-analysis of the deposited data

Results flagged for a closer look

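The effect of MI-2-2 differed between the 3 constructs for 28 of the members picked by the rule for named genes. The test was limma's F test of the interaction terms with Benjamini-Hochberg adjustment over all genes. Members named for other reasons are not counted here, though some passed too, such as Atp5o and Cox6c (adjusted p = 0.00116 and 0.00723). Of all genes tested 52.8% passed that test, so a pass is common in these data. Groups of 3 libraries are too small for a test of single deviating values. In complex I the adjusted p was 2.36e-05 for Ndufa6, 0.000416 for Ndufa11, 0.00184 for Ndufs3, 0.00266 for Ndufv1, 0.00337 for Ndufa8, 0.0254 for Ndufs8 and 0.0434 for Ndufs4. For the 4 complex II genes the adjusted p was 0.000267 for Sdhb, 0.00384 for Sdhc, 0.0192 for Sdha and 0.0255 for Sdhd. Among complex III genes it was 1.75e-05 for Uqcrc1, 3.14e-05 for Uqcrh and 0.00259 for Uqcrfs1. The complex IV genes and Cox7a2l gave 4.72e-05 for Cox6b2, 9.23e-05 for Cox7a2l, 0.000255 for Cox8a, 0.000435 for Cox4i1, 0.000514 for Cox7a2, 0.000799 for Cox6a1, 0.00149 for Cox7a1, 0.0031 for Cox6b1 and 0.0176 for Cox5b. For the complex V genes and Atp5sl the F test gave 0.000636 for Atp5a1, 0.00125 for Atp5d, 0.00929 for Atp5g3, 0.0225 for Atp5b and 0.0241 for Atp5sl. Cox6b2 passed the filter on low values through the MLL-AF6 controls only, so its value follows in part from the filter. Of the 28, Cox6a1, Cox6b1, Cox7a2, Cox8a, Ndufa6, Sdhc and Uqcrfs1 rose in 1 construct and fell in another, while the others differed in size or were called in fewer constructs. Which property of the cells or libraries goes with these differences was not tested.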

How the results depend on the processing

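No called change of a named gene was called in the opposite direction under any alternative run. The balance of rising and falling members in MLL-AF1p cells turned, from 7 and 13 to 10 and 8 after median centring. With voom it was 13 and 8. Of 2478 alternative values over 177 results for single genes, 2267 kept their side of the threshold, 142 lost the call and 69 gained one. Small changes that were not called could switch sign. With MI-2-2 in MLL-AF9 cells the count of rising members (2) was 1 without a filter, 0 after median centring, 1 with a constant prior variance, 1 with voom, 0 with the construct alone, and 0 to 2 with 1 library left out. In MLL-AF6 cells 42 rose and 3 fell with voom, against 25 and 6. In MLL-AF1p cells 13 rose with voom against 7 (4 to 9 with 1 library left out), and the 13 that fell became 8 after median centring, 22 after quantile normalization, 8 with voom, 21 with the construct alone and 7 to 18 with 1 library left out. Under DMSO, the 3 members higher in MLL-AF6 than in MLL-AF9 cells became 1 after median centring, 1 with the DMSO libraries alone and 1 to 4 with 1 library left out. The 13 higher in MLL-AF1p than in MLL-AF9 cells became 8 after median centring, and the 5 lower in MLL-AF1p than in MLL-AF6 cells became 2 with the DMSO libraries alone. The cause of these moves was not tested.

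The labels do not say what a replicate number shares, and 33 of 45 same-numbered pairs of libraries, not all, had deviations correlated above 0.1, so the numbers were not taken to pair the libraries. The numbers 1 and 2 nevertheless went with the deviations. All 15 pairs of number 2 correlated at 0.13 to 0.599 and all 15 of number 1 at 0.0937 to 0.627. For number 3 only 5 of 15 pairs were above 0.1. All 30 pairs of a 1 with a 2 were negative (-0.653 to -0.0816). Deviations were taken from the mean of a group and cancel out within it, so these negative values follow in part from the centring. Within a construct 11 of 18 libraries correlated best with their own number. With the replicate number as a block, 3 members rose and 51 fell in MLL-AF9 cells, 28 and 6 in MLL-AF6 cells and 9 and 15 in MLL-AF1p cells, 59 passed the F test, and under DMSO 4 were higher and 57 lower in MLL-AF6 than in MLL-AF9 cells. Under the block Atp5g2 was called in MLL-AF9 and MLL-AF1p cells (adjusted p = 0.0499 and 0.023), Ppif in MLL-AF9 and MLL-AF6 cells (0.0492 and 0.0252) and Pcx in MLL-AF6 and MLL-AF1p cells (0.0322 and 0.0221), Atp5g1, Cox6a1, Sdha and Myc in MLL-AF1p cells (0.0315, 0.0275, 0.0345 and 0.0349), and Cox6a2 and Ndufa8 in MLL-AF9 cells (0.0298 and 0.0446), all not called without it. Depth limits only the low members, such as Cox6a2 with as few as 1 read.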
